A study of Rattus norvegicus with 38 samples.

Results

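Across the rat heart, 207 of 24057 measured genes had a clearly higher RNA level in both healthy atria than in the healthy left ventricle, and they are described here across regions and in failing hearts. They were chosen by their healthy levels in TPM (transcript abundance scaled for length and to the same library total). The lower of the mean levels of the right atrium (RA) and left atrium (LA), plus 1, had to be at least 4 times the mean of the left ventricle (LV) plus 1. In addition, the higher mean of the inferior (iSAN) and superior (sSAN) parts of the sinoatrial node could be at most 2 times the lower atrial mean. The ratio alone held for 232 genes, and 25 of these were lost to the limit on the node. Since every healthy library entered this choice, healthy levels are given as a description with no test.

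The libraries came from male Sprague-Dawley rats aged 10 weeks. In the failing group, a constriction of the ascending aorta had been placed in pups at 1 week of age. The protocol field of the healthy libraries holds that same text, so the treatment of the healthy rats, such as a sham operation, is not known from it. There were 4 failing and 4 healthy libraries of RA, LA, iSAN and sSAN, and 4 failing and 2 healthy libraries of LV, 38 in all. Titles end in 4-digit codes that regions share, but 0 codes are shared by failing and healthy hearts, and a batch that goes with the code cannot be told apart from the state of the heart. No label ties a code to an animal, and p-values therefore speak of the spread between libraries, which may be technical. Libraries held between 17406473 and 27355777 estimated counts. The pieces are bulk tissue, in which fewer cells of a type and less RNA per cell cannot be told apart.

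Atrial and ventricular muscle cells share the machinery of contraction but use different versions of several of its proteins, and atrial cells also make and secrete natriuretic peptides, hormones that act on the kidney and on blood vessels. Ventricular muscle under pressure load is known to take up parts of a fetal programme that includes such atrial products. The sinoatrial node, which sets the heart beat, lies in the wall of the right atrium and is surrounded by atrial muscle. The tables give Ensembl gene IDs without names and the reference table used here matched 0 of the 24057 IDs, so members are described by level and rank, no role is given for them, and the tissue labels were not checked against marker genes. By a rule that ranks fold changes, 2 members that rose and 2 that fell are given by their ID.

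Several libraries stood apart before any comparison. The 10 most abundant genes of each library took 61.3% of the counts in the failing LV library LV_0507 and 46.6% in LV_0506, against 33.4% in LV_0409, 28.1% in LV_0508 and 36.0% and 36.5% in the healthy LV libraries. Among healthy sSAN libraries, ST_0921 had 39.3% of its counts in 10 genes, against 24.7% to 31.4% in the other 3. TPM levels carry such shifts. After TPM were rescaled by TMM (trimmed mean of M values, which scales libraries on the bulk of genes), 97 of the 207 members met the same limits. The median ratio over all 207 was then 3.83, against 5.66 in unscaled TPM. The ratio of 4 is therefore a cut in unscaled TPM. The main tests below use TMM-scaled counts, and tests on other scales are named where they appear.

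In healthy hearts the median member stood at 26.3 TPM in RA, 22.4 TPM in LA, 20.5 TPM in iSAN, 14.0 TPM in sSAN and 2.12 TPM in LV. The ratio of atria to LV ran from 4.00 to 2647, with a median of 5.66. It was at least 8 in 58 members, at least 20 in 16, at least 100 in 6 and at least 1000 in 2. Just inside the limit lay members at 4.02, 4.01 and 4.00, and just outside it lay genes at 3.997, 3.99 and 3.96. Most members were thus close to the limit. In the LV mean 69 members were under 1 TPM, and 4 were listed at 0 in both LV libraries. Leaving out 1 healthy library at a time gave between 195 and 253 genes, the highest number without library LV_1001. Without library LV_1002 the number was 210, and 189 of the members were among them.

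**Figure D1:**
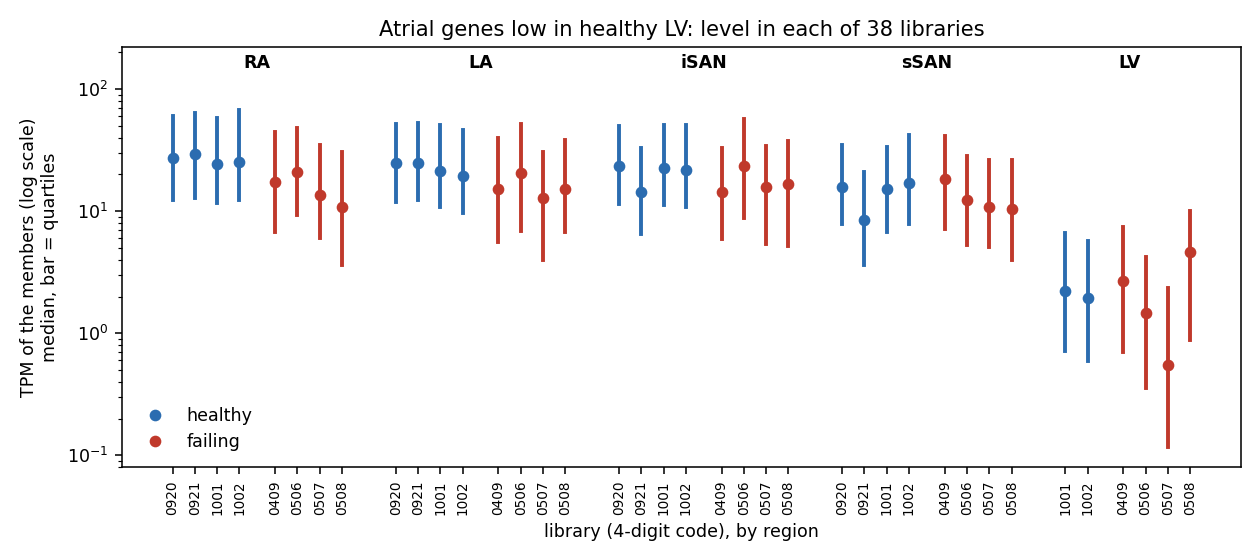
TPM of the members in each of the 38 libraries on a log scale, with points for the median member, bars for the quartiles and 4-digit codes along the axis. The LV libraries lie below all others, and among the failing LV libraries LV_0507 is lowest at 0.551 TPM and LV_0508 highest at 4.62 TPM.

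Abundance among the members was very uneven. The lower atrial mean exceeded 1000 TPM in 6 members and 100 TPM in 28, and was under 10 TPM in 48. The 6 most abundant members carried 91.4% of the members' summed TPM in healthy RA and 91.7% in healthy LA. Together the 207 members made up 13.0% to 13.4% of all TPM in the 4 healthy RA libraries and 11.1% to 12.8% in healthy LA. Their share was 4.81% to 8.91% in healthy iSAN and 1.82% to 7.08% in healthy sSAN, the lowest value being library ST_0921. In the 2 healthy LV libraries it was 0.256% and 0.248%.

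The most common order of the healthy means, RA above LA above iSAN above sSAN above LV, held in 87 members, and LA above RA with the same order after it in 42. LV was lowest in every member. The rule sets LV below the atria but not below the node. RA was highest in 120 members, LA in 47, iSAN in 37 and sSAN in 3. RA and LA were close to each other: 170 members lay within 1.5-fold, 9 were at least 2 times higher in RA and 2 at least 2 times higher in LA. The higher node mean was a median 0.857 times the lower atrial mean. It was under 0.5 times in 11 members, between 0.5 and 1 times in 121, and between 1 and 2 times in 75. iSAN stood above sSAN in 196 members, with a median sSAN to iSAN ratio of 0.663.

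The most abundant member, singled out for that rank, had 71104, 67202, 69250 and 67091 TPM in the 4 healthy RA libraries and 48439, 54277, 57963 and 55935 TPM in healthy LA. Its healthy LV libraries were at 455.8 and 500.4 TPM. In failing hearts it stood at 94749, 84911, 109685 and 145665 TPM in RA, 85955, 88645, 90514 and 119895 TPM in LA, and 9809, 3687, 7471 and 25830 TPM in LV. Every failing library of RA, LA and LV was therefore above every healthy library of the same region. In edgeR the rise was 0.96 (log2, SE 0.24, adjusted p = 0.00917) in RA and 1.04 (SE 0.19, adjusted p = 0.00215) in LA. The RA call was lost in the joint fit of all 38 libraries (adjusted p = 0.0574). In LV the difference was 4.88 (log2, SE 0.78) with an adjusted p of 0.226 in edgeR, and DESeq2 gave 4.87 with an adjusted p of 7.15e-15. Its atria-to-LV ratio in TPM was 113 in healthy and 8.23 in failing hearts.

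The member with the highest ratio, 2647, was singled out for that rank. It had 4610, 4194, 4345 and 4408 TPM in healthy RA, 4095, 4373, 4673 and 4625 TPM in healthy LA, and 0.749 and 0.568 TPM in healthy LV. In failing hearts it stood at 2159, 2471, 1741 and 827.4 TPM in RA, at 2470, 1495, 1000.9 and 1320 TPM in LA, and at 1.37, 1.41, 0.118 and 1.09 TPM in LV. All failing atrial libraries lay below all healthy ones, while the LV groups overlapped. In edgeR it fell by 1.05 (log2, SE 0.24, adjusted p = 0.00644) in RA and by 1.27 (SE 0.28, adjusted p = 0.00542) in LA. Its difference in LV was 0.86 (SE 0.73, adjusted p = 0.607).

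The other 4 members with a ratio of at least 100 did not all share either pattern. Those at ratios of 1194, 584 and 470 had ratios of 499, 232 and 222 in failing hearts, whereas the one at 113 whose atrial level was lowest, 132 TPM in healthy LA, had 13.4. In the last, LA fell from 132 ± 54.1 (SD, n = 4) to 13.2 ± 6.34 TPM (SD, n = 4), by 3.10 (log2, SE 0.41, adjusted p = 0.000485) in edgeR. Its LV stayed at or below 0.361 TPM in all 6 libraries. The member at 1194 stood at 7695 ± 1266 TPM (SD, n = 4) in healthy and 8541 ± 1248 TPM (SD, n = 4) in failing LA, a difference of 0.35 (log2, SE 0.18) that did not pass (adjusted p = 0.125, edgeR).

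**Figure D2:**
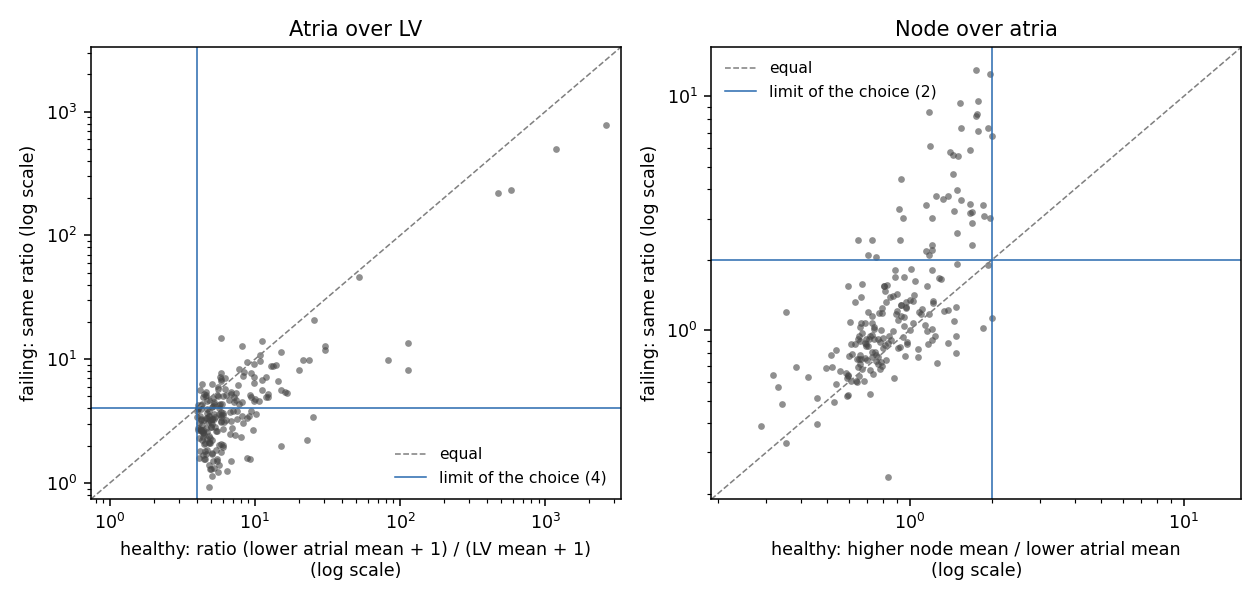
Each point is 1 member, with the healthy value across and the failing value up, both on log scales. Left is the ratio of the lower atrial mean plus 1 to the LV mean plus 1, and right the ratio of the higher node mean to the lower atrial mean, with the limits used to choose the members as blue lines at 4 and 2. Most points lie below the dashed line of equality on the left, where the median ratio was 5.66 in healthy and 3.60 in failing hearts, and on the right, where the choice capped only the healthy value, 46 points lie above 2 in failing hearts in unscaled TPM.

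The failing libraries had no part in the choice, and they show how far the atrial level carried over. In failing hearts the ratio was at least 4 in 91 members (44.0%, against 0.590% of all 24057 genes), at least 2 in 178 and under 2 in 29. The share over all genes had no filter on level, and genes near 0 TPM in the atria cannot reach that ratio. A single member had a ratio under 1, at 0.922. The median was 3.60. Members chosen for passing a limit lie, on average, closer to it in libraries not used for the choice. The same limits applied to the failing libraries gave 110 genes, of which 77 were members, 37.2% of the members and 70% of that list. A further 14 members kept the ratio and lost only the limit on the node.

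These values depended on which failing LV library was used. With library LV_0508 alone in place of the failing LV mean, 50 members had a ratio of at least 4 and the median was 2.61. With LV_0507 alone the values were 162 members and 6.72. In TPM, LV_0508 was the highest of the 4 failing LV libraries for 140 members and LV_0507 the lowest for 166. After rescaling by TMM these numbers were 91 and 96, and the failing ratio was at least 4 in 51 members with a median of 2.60.

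Failing LA and failing LV were compared for the 197 members that passed the filter on low counts, which for some of them was passed through LA alone. In edgeR 135 were higher in LA and 0 lower. Over all 13830 genes tested, 4.91% were higher and 5.86% lower. The median log2 difference was 1.95 over the members tested, with quartiles at 1.21 and 3.08, and 0.02 over all genes. Among the 179 members whose mean level also passed the filter in LV, 118 were higher. All LA libraries lay above all LV libraries, in TMM-scaled counts, in 151 members, against 11.4% of all genes.

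Against failing LV, failing RA gave similar numbers in a comparison that shares the LV libraries. In edgeR 141 of 199 members tested were higher in RA and 0 lower, against 4.56% and 5.43% of all 13689 genes. The median log2 difference was 2.02 over the members and 0.02 over all genes. All RA libraries lay above all LV libraries in 151 members, against 11.4% of all genes. Among the 180 members whose mean level passed the filter in LV, 123 were higher. Without library LV_0506 the numbers higher were 96 for LA and 98 for RA, the lowest found by leaving out 1 library. Over all genes, the numbers higher also went down in those fits, from 679 to 325 for LA and from 624 to 333 for RA.

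Among the members whose mean level passed the filter in failing LV too, the difference between failing LA and LV was larger in the bands of higher healthy ratio. For the 11 with a healthy ratio of at least 20 the median was 4.49 (log2), and 11 passed. For the 36 with a ratio of 8 to 20 it was 2.60 and 27 passed, and for the 132 with a ratio of 4 to 8 it was 1.57 and 80 passed. The difference between bands was not tested. The member with the highest ratio differed by 9.83 (log2, SE 0.70, adjusted p = 0.000241) between failing LA and LV and by 10.0 (SE 0.67, adjusted p = 0.000121) between failing RA and LV in edgeR. The most abundant member differed by 2.24 (SE 0.48, adjusted p = 0.0209) and 2.47 (SE 0.52, adjusted p = 0.0201). Both of the latter calls were lost on leaving out any of 4 libraries, with adjusted p between 0.0504 and 0.0585.

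Between failing LA and failing RA, 0 of 203 members tested passed in either direction in edgeR. Over all 14134 genes tested, 0.127% were higher and 0.184% lower in LA. An unadjusted p under 0.05 was reached by 59 members, against 9.42% of all genes. DESeq2 called 10 higher and 12 lower, against 1.27% and 1.21% of all genes. The median log2 difference was -0.18 over the members. Of the 9 members at least 2 times higher in healthy RA than LA, 8 had the higher mean in failing RA and 3 were still at least 2 times higher there. Of the 2 with LA at least 2 times higher, both had the higher mean in failing LA.

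In failing iSAN the members split by where they had stood in the healthy node. Between failing iSAN and failing RA, edgeR found 26 members higher and 74 lower in iSAN of 203 tested, against 11.6% higher and 7.37% lower of all 14204 genes. The median log2 difference was -0.62 over the members and -0.01 over all genes. All 26 members that were higher came from the 74 tested whose healthy node mean was 1 to 2 times the lower atrial mean, and 7 of those 74 were lower. Of the 118 tested with a healthy node mean of 0.5 to 1 times the atrial mean, 57 were lower and 0 higher, and of the 11 under 0.5 times, 10 were lower and 0 higher. On unscaled log2(TPM + 1), where the median of all genes is shifted by 0.30, limma called 34 members higher and 32 lower, against 15.8% and 1.25% of all genes. With the code as a replicate block in edgeR, 27 members were higher and 103 lower, against 2034 and 1649 of the 14204 genes.

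Between failing sSAN and failing RA, 12 of 204 members tested were higher and 38 lower, against 6.11% and 2.17% of all 14238 genes. With the code as a replicate block, which the correlations of same-coded libraries allow, 21 were higher and 108 lower, against 11.4% and 8.54% of all genes in that fit. The median log2 difference was -0.55. In the band under 0.5 times, 9 of 11 members were lower in sSAN and 0 higher. At 0.5 to 1 times, 23 of 119 tested were lower and 1 higher, and at 1 to 2 times 6 of 74 were lower and 11 higher. In unscaled TPM the higher node mean was a median 1.07 times the lower atrial mean in failing hearts, against 0.857 times in healthy ones, and exceeded 2 times in 46 members. The choice had capped the healthy value at 2 times, while failing values had no cap. After rescaling by TMM the medians were 0.900 in failing and 0.856 in healthy hearts, with 38 members above 2 times in failing and 3 in healthy hearts. For the 75 members whose healthy value lay between 1 and 2 times, the median was 1.38 in healthy and 2.09 in failing hearts in unscaled TPM, and 1.40 and 1.65 after rescaling. On TMM-scaled counts the health effect in iSAN minus that in RA had a median of -0.10 (log2) over the members. Across members the healthy and failing node-to-atria ratios had a Pearson r of 0.718 and a Spearman rho of 0.724 (207 members measured in the same libraries, on logarithms of the ratio for r).

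**Figure D3:**
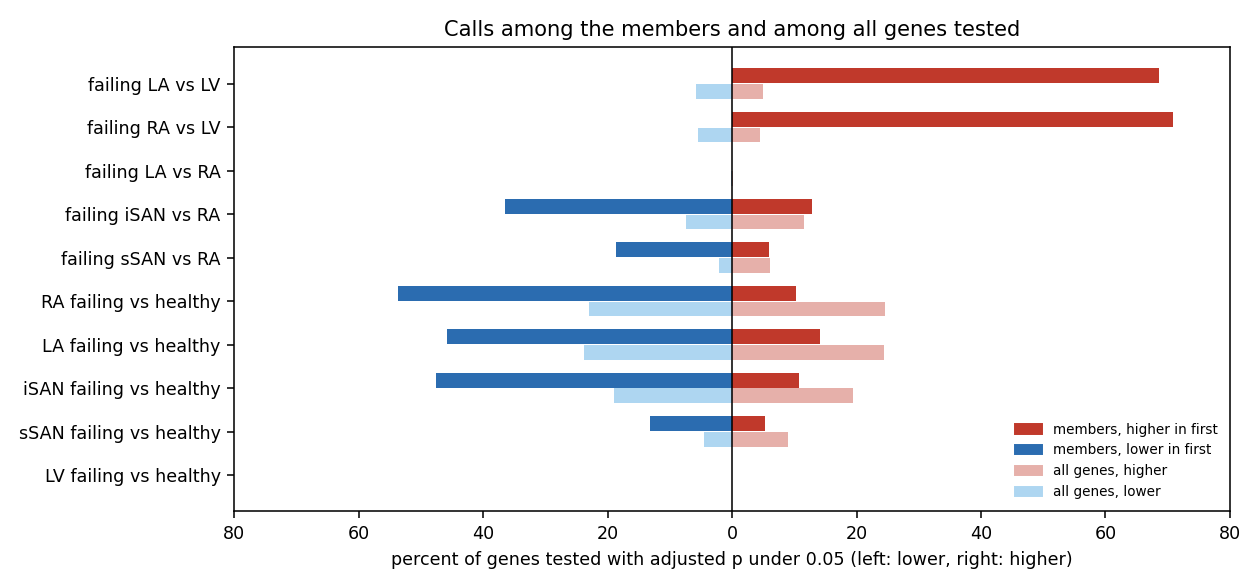
Percent of tested genes with an adjusted p under 0.05 in edgeR in 10 comparisons, to the right where higher and to the left where lower in the first group named. Dark bars are the members and pale bars all genes tested. In failing atria against failing LV 68.5% and 70.9% of the members tested are higher, and in failing against healthy RA 53.7% are lower. The LV comparison and the comparison of the atria have no member passing.

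Failing and healthy libraries of the same region were compared next. These comparisons use the healthy libraries on which the members were selected, and that choice favours high healthy atrial values and low healthy LV values, so counts of lower members in the atria and of higher members in LV are partly set by it. The percentages over all genes stand beside them as a scale.

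In RA, 110 of 205 members tested fell and 21 rose in failing hearts (edgeR), against 23.0% lower and 24.5% higher of all 14011 genes. The median member differed by -0.56 (log2, quartiles -1.05 and 0.01), where the median gene differed by 0.02. The change was at least 2-fold in 53 of those that fell and 5 of those that rose. In LA, 94 of 205 fell and 29 rose, against 23.9% and 24.3% of all 14217 genes, with a median of -0.48. At least 2-fold changes were found in 61 of those that fell and 18 of those that rose. Unscaled TPM shifted the median of all genes by -0.23 in RA and -0.19 in LA, and limma on these values called 128 members lower and 9 higher in RA, against 39.3% and 12.3% of all genes. In LA it called 117 lower and 22 higher, against 36.0% and 13.4%.

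RA and LA are separate libraries that share their codes. In both atria 78 members fell and 17 rose, against 17.8% and 18.2% of the genes tested in both, and 0 members passed in opposite directions. Of the members that passed in 1 atrium, 32 fell in RA only, 16 in LA only, 4 rose in RA only and 12 in LA only. The fold changes had the same sign in 177 of 205. Shares over all genes were not computed for opposite directions, calls in 1 atrium or equal signs, so these counts have no scale. A test of the difference in health effect between LA and RA passed for 0 of 206 members in edgeR, where 0.171% of all genes passed. An unadjusted p under 0.05 was reached by 46 members and 9.20% of all genes. DESeq2 called 8 members (1.21% of all genes), and the fit with the code as a replicate block called 1 (0.164%). This test was added after the data had been seen, as were those for the other pairs of regions.

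**Figure D4:**
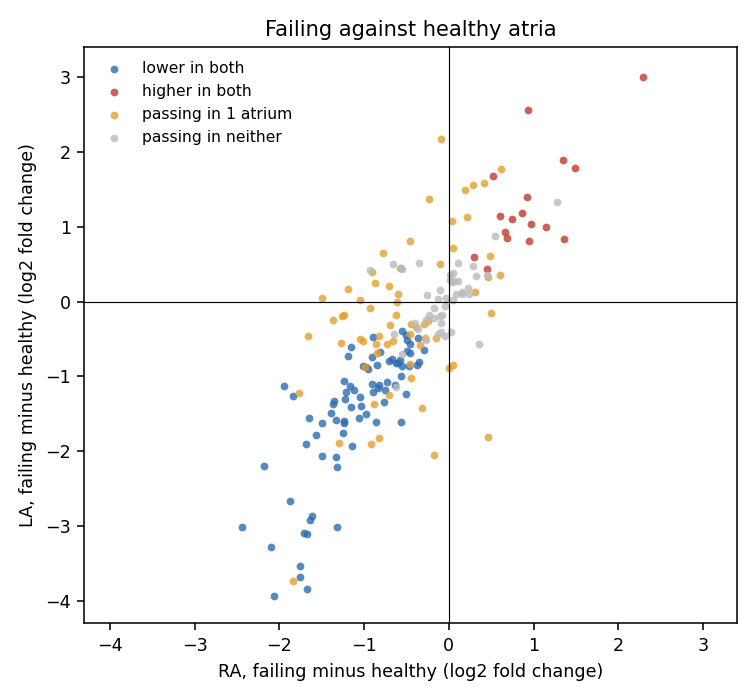
Log2 fold change of each member, failing minus healthy, in RA (across) and LA (up), coloured by whether the adjusted p was under 0.05. Most points lie in the lower left, where the 78 members that fell in both atria run down to -3.93 in LA, and the 17 that rose in both lie in the upper right.

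In iSAN, 97 of 204 members tested fell and 22 rose, against 19.0% and 19.5% of all 14379 genes, with a median difference of -0.50 (log2). In sSAN, 27 of 205 fell and 11 rose, against 4.56% and 8.92% of all 14351 genes, with a median of -0.29. The sSAN numbers depended on single libraries, for all genes as for the members. Members that fell numbered 7 without the healthy library ST_0920, 8 without ST_1002 and 14 without ST_1001. They numbered 9 without the failing library sSAN0507 and 12 without sSAN0508. Over all genes, 654 fell with every library in. That number was 107 without ST_0920, 183 without ST_1002, 503 without ST_1001, 159 without sSAN0507 and 166 without sSAN0508. Members that rose numbered 5 without ST_0920, 4 without ST_1002 and 6 without sSAN0508. Without ST_0921, the healthy library with the lowest member levels, 7 members rose and 32 fell. Over all genes, 1280 rose with every library in. That number was 261 without ST_0920, 446 without ST_1002 and 466 without sSAN0508. Without ST_0921, 683 genes rose and 428 fell. On unscaled TPM limma called 9 higher and 11 lower, against 7.83% and 0.684% of all genes. In each of RA, LA and iSAN 66 members fell, against 13.0% of the genes tested in all 3. In all 4 regions 22 fell and 7 rose, against 3.64% and 6.17% of the genes tested in all 4. There were 36 members with no call in any of the 4 regions and 4 with opposite calls in different regions. Shares over all genes with no call or with opposite calls were not computed.

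The health effect in the node was also set against that in the atria directly. The healthy libraries in these tests also chose the members, which favours effects higher in the node than in the atria. Against RA, 0 members differed for iSAN (0.0203% of all genes) and 0 for sSAN (0.00% of all genes), and 42 and 30 members had an unadjusted p under 0.05, against 11.6% and 11.3% of all genes. DESeq2 called 9 members for iSAN (0.657% of all genes) and 4 for sSAN (0.893%). Against LA, 5 of 206 members differed for iSAN (0.932% of all genes) and 3 of 206 for sSAN (0.652% of all genes). Between sSAN and iSAN 0 members differed (0.00% of all genes), 16 had an unadjusted p under 0.05 (4.01% of all genes) and DESeq2 called 0 (0.00% of all genes). Of the 74 members tested that stood in the node at 1 to 2 times the healthy atrial level, 32 fell and 11 rose in RA, 18 fell and 19 rose in LA, and 19 fell and 15 rose in iSAN. Of the 120 members tested in RA and LA with the node at 0.5 to 1 times, 73 fell in RA and 70 in LA, and 9 and 8 rose. The difference between these bands was not tested. The bands were cut on healthy atrial and node levels that also enter these changes, so the contrast between them is partly set by the cut.

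In LV, 0 of 183 members tested passed in either direction in edgeR, where 0.00% of all 13670 genes passed as higher and 0.00% as lower. There were 2 healthy libraries. An unadjusted p under 0.05 was reached by 35 members, against 11.0% of all genes. DESeq2 called 10 members higher and 2 lower, against 1.96% and 0.478% of all genes with an adjusted p. A joint fit of all 38 libraries, which borrows the spread of the other regions, called 29 higher and 15 lower, against 11.5% and 7.58% of all genes. Without the failing library LV_0507, edgeR called 2 higher. The median log2 difference was 0.18, with quartiles at -0.43 and 0.93. The median member stood at 2.23 and 1.95 TPM in the healthy and at 2.66, 1.48, 0.551 and 4.62 TPM in the failing LV libraries, so the failing group lay on both sides of the healthy one.

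Summed over the members, every failing library of RA, LA and LV held a larger share of all TPM than every healthy one of its region: 15.3% to 19.8% in RA, 13.3% to 17.4% in LA and 0.568% to 3.12% in LV. In both node parts the groups overlapped, at 8.54% to 9.99% in failing iSAN and 5.54% to 10.1% in failing sSAN. Without the most abundant member the share was 6.03% to 6.51% in healthy and 5.26% to 7.60% in failing RA, and 5.93% to 6.95% in healthy and 4.24% to 5.49% in failing LA. In LV it was 0.198% and 0.210% in healthy and 0.109% to 0.541% in failing libraries. The larger atrial share thus came from that member, while the median member was at 26.6 ± 2.16 TPM in healthy and 15.7 ± 4.42 TPM in failing RA, and at 22.6 ± 2.72 and 15.9 ± 3.24 TPM in LA (mean ± SD of the library medians, n = 4 each).

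The largest rises in the atria among members that passed were those of ENSRNOG00000015036 and ENSRNOG00000059827. ENSRNOG00000015036, whose healthy ratio was 5.07, stood at 248.4, 85.2, 92.3 and 79.7 TPM in healthy RA and at 487.6, 189.0, 628.0 and 687.7 TPM in failing RA. In LA it stood at 114.9, 70.0, 89.3 and 54.0 TPM in healthy and 477.2, 1130, 483.5 and 274.5 TPM in failing libraries. The groups overlapped in RA and not in LA. It rose by 2.30 (log2, SE 0.51, adjusted p = 0.00544) in RA and 3.01 (SE 0.38, adjusted p = 0.000411) in LA in edgeR. It also rose in iSAN, by 2.44 (SE 0.46, adjusted p = 0.00471), and in sSAN, by 2.74 (SE 0.42, adjusted p = 0.0112). In LV it stood at 16.6 and 14.1 TPM in healthy and 102.2, 100.4, 53.3 and 411.4 TPM in failing libraries, without overlap, and the difference of 3.57 (SE 0.58) had an adjusted p of 0.226. Between the failing atria and failing LV it did not pass, at 1.11 (SE 0.46, adjusted p = 0.166) for LA and 1.00 (SE 0.50, adjusted p = 0.245) for RA.

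ENSRNOG00000059827, with a healthy ratio of 5.43, stood at 13.0, 10.7, 8.81 and 7.05 TPM in healthy LA and 28.0, 134.6, 30.5 and 22.0 TPM in failing LA, the value of 134.6 being library LA_0506. In RA it stood at 13.9, 14.4, 9.30 and 10.9 TPM in healthy and 18.5, 19.1, 20.7 and 18.1 TPM in failing libraries. Neither atrium had overlapping groups. It rose by 2.56 (log2, SE 0.51, adjusted p = 0.00318) in LA and 0.94 (SE 0.14, adjusted p = 0.00093) in RA in edgeR, and leaving out 1 library at a time gave 1.73 to 2.80 in LA. The RA call was lost in the joint fit of all 38 libraries (adjusted p = 0.114). It did not pass in iSAN, at 0.70 (SE 0.28, adjusted p = 0.0737), or in sSAN, at 0.79 (SE 0.49, adjusted p = 0.291).

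The largest falls were those of ENSRNOG00000002917 and ENSRNOG00000021943. ENSRNOG00000002917, with a healthy ratio of 4.98, stood at 6.86, 6.38, 5.32 and 4.42 TPM in healthy LA and 0.644, 0.203, 0.0539 and 0.397 TPM in failing LA. In RA it stood at 6.79, 5.90, 5.73 and 5.53 TPM in healthy and 1.01, 3.06, 0.823 and 0.0643 TPM in failing libraries. The groups did not overlap in either atrium. It fell by 3.93 (log2, SE 0.51, adjusted p = 0.000451) in LA and by 2.06 (SE 0.60, adjusted p = 0.0181) in RA in edgeR. It also fell in iSAN, by 2.96 (SE 0.53, adjusted p = 0.00358), and in sSAN, by 2.25 (SE 0.55, adjusted p = 0.0313). The sSAN call was lost on leaving out any of 5 libraries, and the RA call without the healthy library RA_0920 (adjusted p = 0.051) and with no filter on low counts (adjusted p = 0.0622).

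ENSRNOG00000021943, with a healthy ratio of 22.8, was listed at 0 TPM in both healthy LV libraries. It stood at 24.9, 25.1, 18.8 and 18.1 TPM in healthy LA and 2.96, 0.870, 0.965 and 0.767 TPM in failing LA, without overlap. It fell by 3.73 (log2, SE 0.42, adjusted p = 0.00025) in LA and by 3.74 (SE 0.56, adjusted p = 0.00185) in iSAN in edgeR. In RA the failing libraries spread from 0 to 26.6 TPM and the healthy ones from 38.6 to 51.1 TPM, and the difference of -1.84 (SE 0.78) did not pass (adjusted p = 0.0765). Without the failing library RA_0506 it was -2.90 (adjusted p = 0.021).

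**Figure D5:**
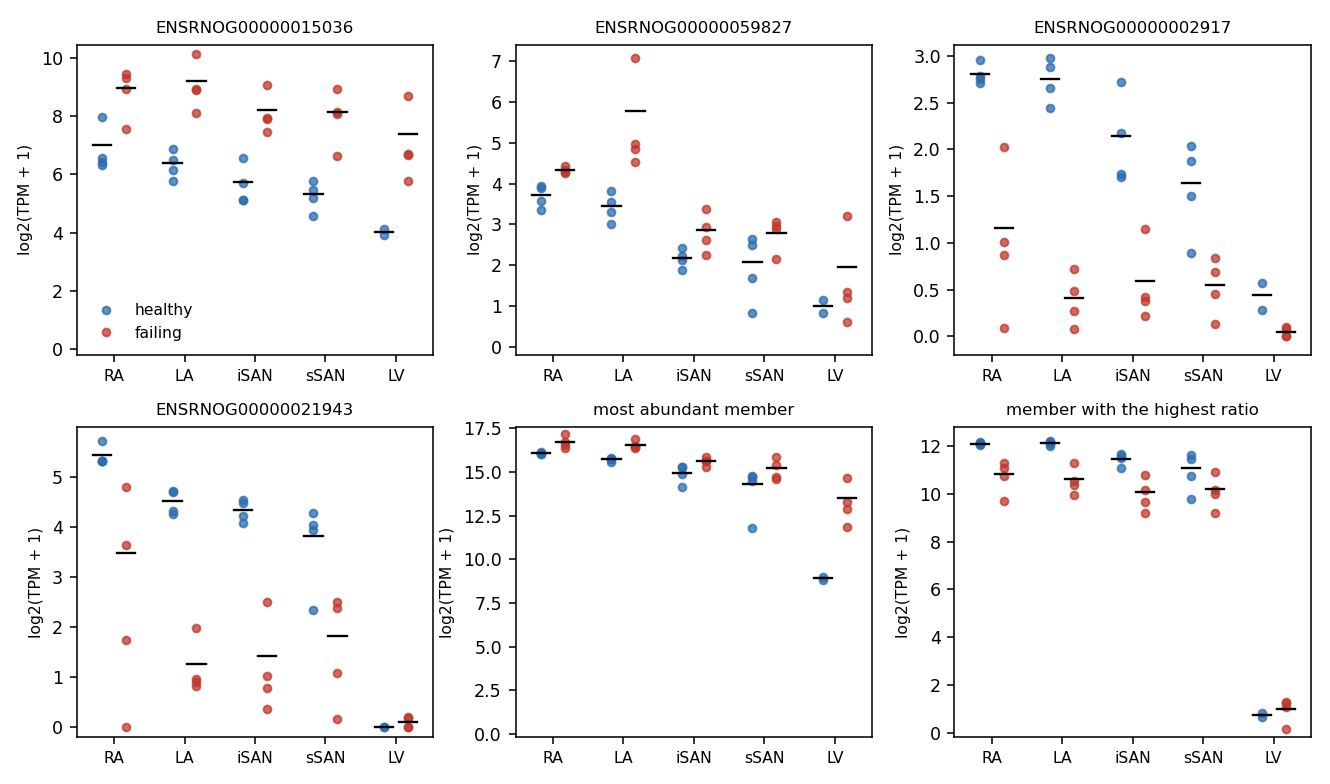
log2(TPM + 1) of 6 members in every library, in 5 regions, with healthy libraries in blue, failing ones in red and a black line at the logarithm of the mean TPM plus 1. The first 2 panels are the members with the largest rises in the atria and the next 2 those with the largest falls. In the last 2, the most abundant member rises in failing LV to between 3687 and 25830 TPM, and the member with the highest ratio lies there between 0.118 and 1.41 TPM.

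Likeness among the members was described by the correlation of each one's log2(TPM + 1) with the median of the members over the 38 libraries. The median Pearson r was 0.874, and r exceeded 0.7 in 189 members and 0.9 in 72, with a lowest value of 0.167. The libraries share the low LV level that the rule chose, and over the 32 libraries without LV the median r was 0.695. There r exceeded 0.5 in 141 members and was under 0 in 10.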

How the data were processed

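RNA of 5 heart regions was sequenced in 38 libraries (TruSeq RNA kit, per the labels' protocols). The submitters' processing notes list Trimmomatic 0.39, a read trimmer, and kallisto 0.48.0, which estimates transcript abundance. Not given in the sources used here were genome build, annotation and the step from transcripts to genes. The authors deposited estimated counts and TPM per gene. TPM served for the choice of members and for levels, and estimated counts, rounded to whole numbers, for tests. The members, lists and tests were chosen with earlier results of these data known. Gene lists, marker lists and promoter motifs were not applied, because 0 IDs matched the reference table. Genes passed filterByExpr with a count minimum of 10 and a total minimum of 15, counts were scaled with TMM, and edgeR 4.0.16 (R 4.3.3) gave quasi-likelihood tests, each fit holding only the 2 groups compared. Benjamini-Hochberg adjustment ran over all genes tested, with a threshold of 0.05. Standard errors were derived from the test statistic. Members were named by ID as the 2 largest rises and 2 largest falls in RA or LA among those with an adjusted p under 0.05 and a mean log2 CPM of at least 1. The most abundant member and those with a ratio of at least 100 were added after their values were seen.

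Alternatives were DESeq2 1.42.0, its size factors in edgeR, no filter, limma 3.58.1 on log2(TPM + 1) and log2(TPM + 0.1) with genes over 1 TPM, a joint fit of 38 libraries, a replicate block by code, each library left out, a ratio of 8 and the choice on TMM-rescaled TPM. Chosen after seeing the data were limma on TMM-rescaled TPM, the tests of the difference in health effect between regions, the choice without each healthy library, the node to atria ratio on TMM-rescaled TPM, and the ratio bands over members that pass the filter in failing LV. To check pairing, deviations from group means were correlated between libraries of the same code. The values were 0.22 to 0.36 for failing RA and LV, 0.30 to 0.38 for iSAN and RA and 0.41 to 0.45 for sSAN and RA. All were over 0.1, the minimum set for pairing. Between libraries of different codes the highest values were 0.272, 0.112 and 0.036 in that order. For LA against LV and LA against RA the lowest values of the same code were 0.061 and -0.081. The main tests used no block. The scripts were tested on simulated data.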

Additional observations from a re-analysis of the deposited data

Results flagged for a closer look

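In groups of 4 libraries, Dixon's criterion was applied to single members, the median member and the members' share of all TPM. A library lay far from the other 3 in 8 of 72 groups. The cut-off gives about 1 in 20 for independent, normally distributed values. Here TPM were used without a logarithm, groups shared libraries, and 4 members had been picked for large changes in these libraries. The observed share can therefore not be set against 1 in 20. All 8 were groups of single-member TPM values, so the share among single members was higher than 8 of 72. ENSRNOG00000015036 stood at 248.4 TPM in the healthy library RA_0920 and 411.4 TPM in the failing library LV_0508. ENSRNOG00000059827 stood at 134.6 TPM in the failing library LA_0506 and 8.25 TPM in the failing library LV_0508. ENSRNOG00000021943 stood at 51.1 TPM in the healthy library RA_0921, 2.96 TPM in the failing library LA_0409 and 4.69 TPM in the failing library iSAN0506. The most abundant member stood at 119895 TPM in the failing library LA_0508. In each case the library was the highest of its group.

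For 5 members the difference between failing and healthy hearts was itself different in the node and in LA. The interaction test in edgeR was added after the data were seen. The choice of members favours high healthy LA and caps the healthy node against the atria. A health effect higher in the node than in LA, found for 4 of the 5, is therefore favoured by it. A first member had a health effect 2.98 (log2) higher in iSAN than in LA and 2.51 higher in sSAN than in LA: its mean went from 15.1 to 2.77 TPM in LA, from 17.999 to 35.9 TPM in iSAN and from 17.1 to 23.8 TPM in sSAN. Another was 2.15 higher in iSAN, going from 33.9 to 15.6 TPM in LA and from 24.4 to 68.9 TPM in iSAN. A further member was 1.499 higher in iSAN and 1.40 higher in sSAN, with 17.1 and 4.80 TPM in LA, 6.37 and 6.67 TPM in iSAN, and 3.78 and 3.72 TPM in sSAN. The member with the highest level was 2.02 higher in iSAN and 1.87 higher in sSAN, with 193.0 and 39.8 TPM in LA, 117 and 131 TPM in iSAN, and 81.3 and 78.8 TPM in sSAN. For the last the difference was -0.95 in iSAN against LA, with a rise from 10.1 to 30.2 TPM in LA and from 14.9 to 29.5 TPM in iSAN. The adjusted p ranged from 0.00712 to 0.0348 for iSAN and from 0.0382 to 0.0429 for sSAN. With the code as a replicate block 12 members passed for iSAN, 4 of these 5 among them, and 2 for sSAN, 1 of these 3 among them. DESeq2 called 18 and 10, including all 5 and all 3. Over all genes the main test called 139 for iSAN and 97 for sSAN. The replicate block called 223 and 89 genes, and DESeq2 527 and 478. These members are given by values only, since no names go with their IDs.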

How the results depend on the processing

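Counts of members are given as higher and lower in the first group. DESeq2 called 1 member lower in failing LA against LV, 10 higher and 12 lower in failing LA against RA, 20 higher and 75 lower in failing sSAN against RA, 17 higher and 45 lower in failing against healthy sSAN, and 10 higher and 2 lower in failing against healthy LV. In the same order, its numbers over all genes were 1558, 202 and 193, 1474 and 815, 1862 and 1382, and 275 and 67. With 1 fit of all 38 libraries, 1 was lower in failing LA against LV, 8 higher and 9 lower in failing LA against RA, 19 higher in failing sSAN against RA, 11 higher in failing against healthy RA, and 29 higher and 15 lower in LV. The numbers over all genes were 2832, 149 and 120, 1180, 2572, and 1813 and 1196. With limma on log2(TPM + 1) and on log2(TPM + 0.1), 32 and 32 were lower in failing iSAN against RA, 9 and 9 higher in RA, and 11 and 9 lower in sSAN, and the first called 1 higher in LV. These limma numbers over all genes were 158 and 152, 1515 and 1510, 85 and 75, and 1. For failing LA against RA, no filter, limma on log2(TPM + 1), on log2(TPM + 0.1) and on TMM-rescaled TPM, and the replicate block, gave 1 lower each. Over all genes 31, 32, 31, 29 and 19 were lower. The replicate block gave 21 higher and 108 lower in failing sSAN against RA and moved no other number of members by over 1.5 times. No paired analysis was possible for failing against healthy because 0 codes are shared. A ratio of 8 left 58 genes and the choice on TMM-rescaled TPM 99, of which 97 were members.

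Leaving out 1 library at a time gave these ranges: 96 to 144 higher and 0 to 0 lower in failing LA against LV; 98 to 151 and 0 to 0 in failing RA against LV; 0 to 1 and 0 to 2 in failing LA against RA; 17 to 28 and 55 to 85 in failing iSAN against RA; 7 to 15 and 23 to 43 in failing sSAN against RA. Against healthy libraries they were 17 to 22 and 81 to 118 in RA, 25 to 35 and 84 to 101 in LA, 17 to 26 and 80 to 103 in iSAN, 4 to 15 and 7 to 32 in sSAN, and 0 to 2 and 0 to 0 in LV. Over all genes, the numbers higher ranged from 308 to 890 in failing LA against LV and from 308 to 891 in failing RA against LV. Failing iSAN against RA fell to 17 members higher without library RA_0507, where the number over all genes went from 1649 to 1065. Failing sSAN against RA had 7 members higher without library RA_0409, and 23 and 24 lower without libraries sSAN0508 and RA_0507. The numbers over all genes went from 870 to 638 higher, and from 309 to 137 and 140 lower, in the same fits. Of the values of single members under an alternative, 390 kept their direction and call, 16 gained a call, 17 lost one and 0 reversed. The causes were not tested. The 2 healthy LV libraries limit every LV comparison with healthy hearts, and low LV levels limit the 24 members not tested there.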
